A study of Mus musculus with 18 samples.

Results

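The 40 genes described here encode the enzymes and transporters of glycolysis, the kinases that set its rate, the hypoxia-inducible factor HIF-1α with 2 of the prolyl hydroxylases that mark it for destruction, a set of genes known to be induced in low oxygen, and 2 enzymes of glycogen storage. They were chosen by name with earlier results of these data known, which limits what a comparison of their shares with those of all genes can show. All 40 are among the 23329 genes of the count tables, and 35 had enough reads to be tested beside 11942 genes in all. They were followed in FDH cells, immortalised fetal liver cells of BALB/c mice, taken at stage E14.5 from animals of the genotype bc-/- bIL-3-/-, the deleted genes being those of the receptor's β chains. The cells, at passages 10 to 12, had been transduced with the β chain together with either wild-type IL3Ra or IL3Ra P248L, the Site 4 mutant of the receptor's α chain. Each line was sampled untreated, in growth medium with doxycycline and mouse SCF at 100 ng/ml, and after 2 or 5 days in medium with IL-3 at 100 ng/ml, for which neither doxycycline nor SCF is listed. The 6 groups held 3 libraries each, 18 in all. Each receptor was carried by 1 line, so the receptor and the line cannot be told apart, and neither can the addition of IL-3 and the withdrawal of doxycycline and SCF. The labels do not say whether the 3 libraries of a group came from separate cultures, so p-values measure the spread between these libraries, which may be technical.

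Glycolysis turns glucose into pyruvate, which is either oxidised in mitochondria or reduced to lactate and exported. In low oxygen the prolyl hydroxylases stop modifying HIF-1α, which then escapes the von Hippel-Lindau ubiquitin ligase, pairs with ARNT and binds short DNA words in the promoters and enhancers of its targets. Many glycolytic enzymes, the glucose transporter Slc2a1, Pdk1, Egln3, Bnip3 and Vegfa are textbook targets of this factor, and myeloid cells also use the same genes in normal oxygen. No oxygen level is given in the labels, and RNA does not measure HIF-1α protein.

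The libraries held 13844612 to 27181962 reads assigned to genes, and levels are given as CPM, reads per 1000000 after scaling between libraries. Changes are log2 fold changes with their standard error (SE), and a change was called where the p-value of edgeR's quasi-likelihood test, adjusted over all 11942 tested genes, was under 0.05. The summed level of 5 hepatocyte markers was 0.153 to 14.3 CPM and that of 9 red cell markers 0.246 to 28.3 CPM, with Alb, Ttr and the globin genes Hba-a1, Hba-a2, Hbb-b1 and Hbb-b2 at 0 in every library. Nearly all of the highest hepatocyte sums was Afp, with a mean of 13.9 CPM at day 2 in the wild-type line. In that line at day 5 the globin gene listed as Beta-s had a mean of 8.61 CPM (SD 11.1) and Epor 6.12 CPM. The summed level of 7 blood progenitor markers was lower in IL-3 than untreated in both lines, 2362 to 2456 CPM untreated and 1544 to 1619.8 CPM at day 5 in the wild-type line and 2599 to 2828 and 1658 to 1752 CPM in the P248L line. Within it Kit, Cd34, Flt3, Myb and Gata2 had lower means at day 5 than untreated in both lines (Flt3 from 133 to 0.0406 CPM and from 127 to 0.0981 CPM), while Ptprc and Sfpi1 had higher ones. Markers of neutrophils moved with the groups: the summed level of 9 such genes ran from 85.7 to 116 CPM untreated, 14992 to 18525 CPM at day 2 and 9256 to 14882 CPM at day 5 in the wild-type line. Its range in the P248L line went from 31.3 to 40.7, 134 to 197 and 28309 to 40533 CPM. All 9 genes had reads in each group. Most of the day 5 sum was S100a8 and S100a9. Their means were 4374 and 4534 CPM in the wild-type line and 14043 and 17050 CPM in the P248L line. Mmp8 (1334 and 1276 CPM) and Mmp9 (106 and 111 CPM) had like day 5 means in the 2 lines. The other markers had higher day 5 means in the P248L line. From day 2 to day 5 in the wild-type line Mmp8, Mmp9 and Ltf had rising means and the others falling ones. The sum of 6 macrophage markers was 170.2 to 181 CPM untreated and 2491 to 2780.3 CPM at day 5 in the wild-type line, and 179.8 to 226 and 1230.5 to 1446 CPM in the P248L line. The sum of 6 mast cell markers was 498 to 662 CPM untreated and 2082 to 3069.5 CPM at day 5 in the wild-type line, and 469.8 to 555 and 28.4 to 49.4 CPM in the P248L line. Nearly all of it was Cpa3, with a mean of 2552 CPM at day 5 in the wild-type line, where Cma1 was at 67.8 CPM and Mcpt4, Tpsb2, Fcer1a and Ms4a2 were at 0.602 CPM or less. The part of these cell types in the results was not tested, and in bulk RNA a change in the share of a cell type and a change in RNA per cell cannot be told apart. Libraries 1 of the untreated and 3 of the day 2 P248L group stood apart from their replicates. Without both of them no member call of day 5 against untreated, of the lines at day 5 or of the day 5 response difference was lost.

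Sequences upstream of the members' start sites are shown first because HIF-1 is known to bind the core words ACGTG and GCGTG. Both words were searched on both strands in the 250 bases before each start in RefSeq's promoter table for mouse (GRCm38.p6), which held 37 of the 40 members and lacked Bnip3l, Ndrg1 and Slc2a3. At least 1 core lay in 32 of these 37 genes, 86.5%, and in 11225 of all 27018 genes, 41.5%. Counted by window, the share was 75.9% of 54 member windows and 38.6% of 32841 windows of the same length, and 2 or more cores lay in 44.4% and 16.7%. The palindrome CACGTG, to which other factors bind, holds a core on each strand and counted as 2; it lay in 11.1% of member windows and 6.02% of all windows. Base composition was not matched, and a match is a description of letters, not of binding.

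Stretches with cores are shown for 3 genes that moved in opposite directions in the 2 lines at day 5 (Egln3, Pgk1 and Pdk1), for 1 that rose in both but more in the P248L line (Bnip3), for 1 enzyme that rose past the threshold in the P248L line alone (Pfkp), and for 1 transporter that fell in both (Slc16a1). They lie upstream of a listed start site of the gene at chr12:54204087-54204115 (minus strand, Egln3), chrX:106186938-106186985 (plus, Pgk1), chr2:71873134-71873162 (plus, Pdk1), chr7:138909525-138909635 (minus, Bnip3), chr13:6648778-6648919 (minus, Pfkp) and chr3:104638452-104638546 (plus, Slc16a1). The start site used for Pfkp is internal, and its stretch lies within the span of the gene, chr13:6579874-6649060. Each is written 5′ to 3′ on the gene's strand, with the cores, and their reverse complements CACGT and CACGC, in capitals.
Egln3: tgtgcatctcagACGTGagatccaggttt
Pgk1: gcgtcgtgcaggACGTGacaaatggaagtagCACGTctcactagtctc
Pdk1: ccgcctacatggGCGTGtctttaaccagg
Bnip3: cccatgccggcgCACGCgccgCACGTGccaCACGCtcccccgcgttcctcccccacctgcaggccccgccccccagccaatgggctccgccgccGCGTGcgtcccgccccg
Pfkp: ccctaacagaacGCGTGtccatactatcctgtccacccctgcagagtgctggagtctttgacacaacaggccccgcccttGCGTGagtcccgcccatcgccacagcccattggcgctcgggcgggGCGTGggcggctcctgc
Slc16a1: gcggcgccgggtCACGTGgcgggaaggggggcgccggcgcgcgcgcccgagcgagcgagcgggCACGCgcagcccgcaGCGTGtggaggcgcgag
Nearly all members with a window held a core, so its presence could hardly sort them by response, and no conclusion is drawn. Sequence outside these windows was not searched. Of the 18 members with a window whose day 5 response differed between the lines, 14 held a core, and of the 14 with a window and no such call, 13 did. Gys1 and Gbe1, among the members with the largest differences, held none in this window, nor did Gpi1 and Tpi1, and of the 2 windows of Vegfa the upstream one held none. Slc16a1, with 4 cores, fell in both lines.

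At day 5 the P248L line carried most of these genes at a higher level than before IL-3, while the wild-type line split. In the P248L line 28 of the 35 tested members were higher at day 5 than untreated and 4 were lower, with a median log2 change of 1.33; of all tested genes 34.8% were called higher, 36.2% lower and 71.1% in either direction, with a median of -0.02. In the wild-type line 16 members were higher and 10 lower at day 5, against 35.7% and 37.4% of all genes, and the members' median was 0.34; the 26 members called in either direction, 74.3%, are close to the 73.1% of all genes. Without library 3 of the wild-type day 5 group that median was 0.05. The same 16 members were higher in both lines (Hk1, Hk2, Pfkl, Aldoa, Eno2, Slc2a1, Slc2a3, Slc16a3, Pfkfb4, Hif1a, Bnip3, Bnip3l, P4ha1, Ndrg1, Ddit4 and Mxi1). Pgk1, Pdk1, Egln3, Vegfa and Gbe1 fell in the wild-type line and rose in the P248L line. Hk3, Pfkm, Slc16a1 and Pfkfb3 fell in both.

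The counts of called members over time are set here beside the shares of all genes. At day 2 the wild-type line had 19 members higher and 7 lower than untreated (54.3% and 20% of those tested), with a median of 0.49. Of all genes 22.1% were called higher and 21.8% lower (43.9% in all). In the P248L line 9 were higher and 8 lower (25.7% and 22.9%), a median of 0.18, near the 18.5% and 21.5% of all genes (40% in all). Without the 2 P248L libraries that stood apart these counts were 13 and 9 in the P248L line and 20 and 7 in the wild-type line. From day 2 to day 5 the P248L line had 28 members higher and 2 lower (80% and 5.71%), against 37.1% and 33.1% of all genes (70.2% in all). The wild-type line had 12 higher and 11 lower (34.3% and 31.4%), near the 36.0% and 34.7% of all genes (70.7% in all).

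The difference between the lines' responses was tested as an interaction. At day 5 the P248L response exceeded the wild-type response in 19 of 35 members and fell short in 0, where 14.7% of all genes were called in the first direction and 12.2% in the other (26.9% in all). The members' median difference was 0.78 on the log2 scale and that of all genes 0.04. At day 2 the difference was called in 7 members, 1 higher (Pdk1) and 6 lower in the P248L line (Eno2, Slc2a3, Slc16a3, Pfkfb4, Ddit4 and Mxi1), where 3.05% and 6.50% of all genes were called (9.55% in all). The split of calls over all genes moved when libraries were scaled by size alone. The median of all genes was then -0.49 for wild-type day 5 against untreated, where 12 members were higher and 12 lower, and 34.4% of all calls were upward in place of 48.9%. At day 2 the members' calls were then 14 higher and 7 lower in the wild-type line (36.0% of all calls upward in place of 50.4%) and 9 and 8 in the P248L line (34.4% in place of 46.3%). Wild-type day 5 against day 2 had 9 and 16 (40.5% in place of 51.0%). For the day 5 response difference 21 members were called, all higher, and 72.7% of all calls were in that direction in place of 54.6%. Untreated, the lines differed in 3 higher and 5 lower members (35.8% in place of 47.7%).

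**Figure D1:**
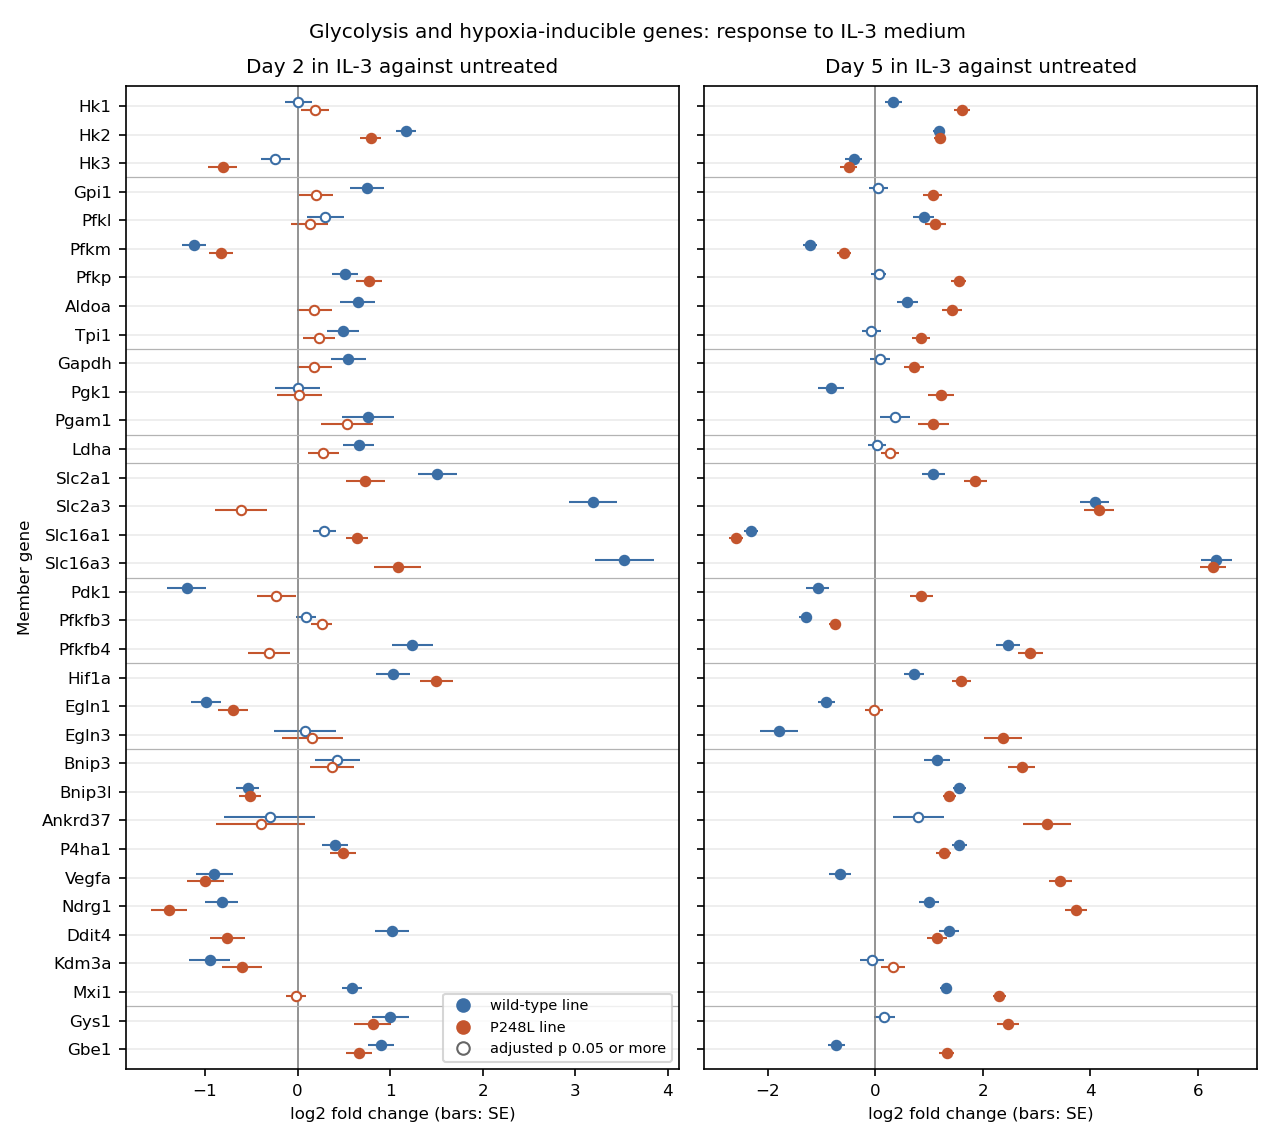
Log2 fold change of 34 tested members against untreated cells at day 2 (left) and day 5 (right) in the wild-type line (blue) and the P248L line (orange); bars are 1 SE, open circles missed the threshold, grey lines part the roles, and Eno2, near 0 reads before day 5, is left out. At day 5 the orange points lie to the right of 0 for all but 5 genes, of which 4 were called lower, while the blue points fall on both sides.

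Glucose enters through the transporters Slc2a1 (GLUT1) and Slc2a3 (GLUT3, of higher affinity). Both were higher at day 5 in both lines, and Slc2a3 changed more. Slc2a3 held 5.67, 7.93 and 6.74 CPM untreated, 48.4, 75.4 and 62.6 CPM at day 2 and 92.8, 116 and 135 CPM at day 5 in the wild-type line. For Slc2a3 the P248L libraries held 3.19, 6.42 and 6.08 CPM untreated, 2.36, 4.68 and 3.38 CPM at day 2 and 104, 91.2 and 83.8 CPM at day 5. Every wild-type day 2 library thus stood above all untreated ones, while the P248L day 2 libraries lay among or below their untreated ones. Slc2a3 rose by log2 3.19 ± 0.26 SE, adjusted p = 2.4e-08, at day 2 in the wild-type line, was not called in the P248L line (log2 -0.61 ± 0.28 SE, adjusted p = 0.099), and the responses differed by log2 -3.79 ± 0.38 SE, adjusted p = 4.3e-06. At day 5 the change was log2 4.08 and log2 4.16 in the 2 lines, 16.9-fold and 17.8-fold, and the difference of log2 0.08 ± 0.35 SE, adjusted p = 0.91, missed the threshold. For Slc2a1 the wild-type libraries held 33.6, 40.3 and 37.7 CPM untreated, 101, 109 and 108 CPM at day 2 and 64.8, 65.2 and 105 CPM at day 5. Its P248L libraries held 61.7, 42.4 and 38.7 CPM untreated, 86.9, 82.0 and 67.8 CPM at day 2 and 193, 127 and 199 CPM at day 5. Neither time overlapped the untreated libraries in either line; day 2 and day 5 overlapped in the wild-type line, and day 5 stood above day 2 in the P248L line. At day 5 it had changed by log2 1.08 ± 0.21 SE, adjusted p = 0.00019, and by log2 1.86 ± 0.21 SE, adjusted p = 4.9e-07, in the 2 lines, and the difference of 0.78 missed the threshold (adjusted p = 0.059).

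The hexokinases, which trap glucose in the cell, moved apart from each other. Hk2, the form induced by insulin and hypoxia in many tissues, changed by like amounts in both lines, with 114, 112 and 111 CPM untreated, 253, 257 and 247 CPM at day 2 and 260.1, 249 and 261 CPM at day 5 in the wild-type line. For Hk2 the P248L libraries held 114, 106 and 117 CPM untreated, 187, 192 and 205 CPM at day 2 and 299, 228 and 252 CPM at day 5. Its libraries in IL-3 all lay above the untreated ones, and the day 5 changes were log2 1.19 ± 0.11 SE, adjusted p = 1.2e-08, and log2 1.21 ± 0.11 SE, adjusted p = 1.4e-08. Hk1, the widely expressed form, separated the lines. It stood at 151, 142 and 168 CPM untreated, 171, 147 and 145 CPM at day 2 and 189, 204 and 191 CPM at day 5 in the wild-type line. For Hk1 the P248L libraries held 70.5, 102 and 109.7 CPM untreated, 122, 104 and 95.8 CPM at day 2 and 321, 261 and 284 CPM at day 5, so it began lower and ended higher than the wild-type line. The day 5 change was log2 1.62 ± 0.15 SE, adjusted p = 3.7e-08, in the P248L line and log2 0.34 ± 0.15 SE, adjusted p = 0.048, in the wild-type line, a call lost in 13 of the 18 fits with 1 library left out and turned in sign with no scaling beyond library size, and the responses differed by log2 1.28 ± 0.21 SE, adjusted p = 0.00022. Hk3, the form typical of myeloid cells, was lower at day 5 in both lines (log2 -0.40 ± 0.16 SE, adjusted p = 0.034, and log2 -0.49 ± 0.16 SE, adjusted p = 0.011) and ran between 108 and 343 CPM over all libraries. The wild-type call of Hk3 was lost with DESeq2, with the size factors of DESeq2 in edgeR and in 5 of the 18 fits with 1 library left out.

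Upper glycolysis, from glucose phosphate to the triose phosphates, was mostly higher in the P248L line: 5 of its 6 tested genes were higher at day 5 and 1, Pfkm, was lower (34.8% and 36.2% of all genes). In the wild-type line 2 were higher and 1 lower (35.7% and 37.4% of all genes). The response exceeded that of the wild-type line in 5 of the 6 (14.7% of all genes). Gpi1, the glucose phosphate isomerase, held 416, 461 and 447 CPM untreated, 809, 702 and 715 CPM at day 2 and 415, 472 and 489 CPM at day 5 in the wild-type line. For Gpi1 the P248L libraries held 476, 421 and 380.0 CPM untreated, 638, 505 and 329 CPM at day 2 and 954, 797 and 926 CPM at day 5. The wild-type rise at day 2 was gone by day 5, whereas the P248L rise came at day 5 (log2 1.07 ± 0.18 SE, adjusted p = 3.7e-05). Reads of Gpi1 are uncertain, since 24.5% of its transcript words of 50 bases also occur in other genes.

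Phosphofructokinase, the committed step, is built from the liver (Pfkl), muscle (Pfkm) and platelet (Pfkp) subunits. Pfkp stood at 122, 120.5 and 127 CPM untreated, 179, 171 and 175 CPM at day 2 and 119, 130.2 and 139 CPM at day 5 in the wild-type line. For Pfkp the P248L libraries held 66.3, 99.2 and 107 CPM untreated, 161, 161 and 143 CPM at day 2 and 282, 241 and 273 CPM at day 5. It rose in both at day 2, and at day 5 only the P248L libraries lay clear of the untreated ones. Its day 5 change was log2 1.55 ± 0.14 SE, adjusted p = 3e-08, there and log2 0.07 ± 0.14 SE, adjusted p = 0.66, in the wild-type line, a difference of log2 1.47 ± 0.20 SE, adjusted p = 3e-05. Pfkl held 58.6, 71.7 and 65.2 CPM untreated, 79.7, 80.7 and 80.0 CPM at day 2 and 102, 117 and 146 CPM at day 5 in the wild-type line. For Pfkl the P248L libraries held 109, 102 and 84.0 CPM untreated, 140.4, 111 and 69.9 CPM at day 2 and 238, 181 and 222 CPM at day 5. It was called higher at day 5 in both lines (log2 0.90 ± 0.20 SE, adjusted p = 0.00052, a call lost with no scaling beyond library size, and log2 1.12 ± 0.20 SE, adjusted p = 6.9e-05). Pfkm went the other way, with 40.032, 43.4 and 41.0 CPM untreated, 20.6, 18.1 and 18.7 CPM at day 2 and 17.6, 18.3 and 17.7 CPM at day 5 in the wild-type line. For Pfkm the P248L libraries held 36.7, 44.7 and 42.1 CPM untreated, 25.5, 23.6 and 20.1 CPM at day 2 and 25.7, 25.5 and 31.3 CPM at day 5. Both times in IL-3 lay below untreated in each line, and the day 5 fall was larger in the wild-type line (log2 -1.21 against log2 -0.58, difference log2 0.63 ± 0.18 SE, adjusted p = 0.014).

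Aldoa, the main aldolase of muscle and blood cells, was the most read member, with 683, 789 and 707 CPM untreated, 1169, 1084 and 1169 CPM at day 2 and 953, 1069.6 and 1268 CPM at day 5 in the wild-type line. For Aldoa the P248L libraries held 1148, 819 and 698 CPM untreated, 1269, 995 and 752 CPM at day 2 and 2408, 2244 and 2547 CPM at day 5. All 3 P248L day 5 libraries lay above every other library. Its day 5 changes were log2 0.60 ± 0.19 SE, adjusted p = 0.0089 (a call lost with no scaling beyond library size, and without library 3 of that group), and log2 1.43 ± 0.19 SE, adjusted p = 2.9e-06, and the difference of log2 0.84 ± 0.27 SE, adjusted p = 0.027, lost its call in 7 of the 18 fits with 1 library left out. Tpi1, which interconverts the triose phosphates, held 265, 339 and 274 CPM untreated, 393, 412 and 429.7 CPM at day 2 and 223, 252 and 360.2 CPM at day 5 in the wild-type line. For Tpi1 the P248L libraries held 368, 375 and 339 CPM untreated, 482, 455 and 333 CPM at day 2 and 594, 622 and 738 CPM at day 5. It was called higher at day 5 in the P248L line alone (log2 0.85 ± 0.17 SE, adjusted p = 0.00026), and the responses differed by log2 0.92 ± 0.24 SE, adjusted p = 0.0089. The brain aldolase Aldoc was not tested, with 0 to 0.646 CPM.

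Lower glycolysis, from glyceraldehyde phosphate to pyruvate, is read with more doubt, since several of its genes have processed copies: 58.4% of the words of Gapdh, 68.0% of Pgk1 and 41.5% of Pgam1 also occur in other genes. Pgk1, the kinase of the first ATP-forming step, moved in opposite directions. The wild-type libraries held 317, 326 and 290.4 CPM untreated, 275, 332 and 328 CPM at day 2 and 133, 149 and 247 CPM at day 5. The P248L libraries held 185, 323 and 389.8 CPM untreated, 275, 312 and 324 CPM at day 2 and 586, 678 and 822 CPM at day 5. Neither line was called at day 2, and at day 5 all wild-type libraries were below and all P248L libraries above their untreated ones. The changes were log2 -0.82 ± 0.24 SE, adjusted p = 0.005, and log2 1.22 ± 0.24 SE, adjusted p = 2e-04, a difference of log2 2.04 ± 0.34 SE, adjusted p = 0.00022.

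Pgam1, the phosphoglycerate mutase, held 80.6, 74.1 and 70.9 CPM untreated, 106, 144 and 132 CPM at day 2 and 73.0, 84.5 and 134 CPM at day 5 in the wild-type line. For Pgam1 the P248L libraries held 33.9, 73.4 and 81.3 CPM untreated, 89.7, 114 and 66.9 CPM at day 2 and 105, 129 and 164 CPM at day 5. It was called higher at day 5 in the P248L line alone (log2 1.08 ± 0.29 SE, adjusted p = 0.0027), and the responses were not shown to differ (log2 0.70 ± 0.40 SE, adjusted p = 0.21). Gapdh ran from 346 to 791 CPM and had the same calls, with log2 0.72 ± 0.19 SE, adjusted p = 0.0022, in the P248L line and a difference of log2 0.63 ± 0.26 SE, adjusted p = 0.088.

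Eno2, the enolase typical of neurons, came up from next to nothing in both lines. It had 4 reads over the wild-type untreated libraries, 24 at day 2 and 685 at day 5, which is 10.7, 11.9 and 20.4 CPM. P248L libraries had 6 reads untreated, 0 at day 2 and 1142 at day 5, which is 26.3, 14.9 and 23.8 CPM. The day 5 level was at least 407-fold above day 2 in that line, taking 3 reads as what a count of 0 over the group allows. Its day 2 difference between the lines rests on these few reads. The widely expressed enolase Eno1 had 5 reads in all libraries together, and 49.5% of its words also occur in other genes. A near-identical gene listed as Gm5506, looked up after this was seen, held 17.2 to 71.7 CPM.

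Lactate dehydrogenase Ldha, which makes lactate, was between 576 and 1504 CPM and was called at day 5 in neither line (log2 0.03 ± 0.17 SE, adjusted p = 0.88, and log2 0.28 ± 0.17 SE, adjusted p = 0.15). It had risen at day 2 in the wild-type line (log2 0.66 ± 0.17 SE, adjusted p = 0.0046) and was already higher in the P248L line untreated (log2 0.67 ± 0.17 SE, adjusted p = 0.01). The heart form Ldhb had 3 reads in all libraries together and was not tested. Of the lactate carriers, Slc16a1 fell and Slc16a3 rose at day 5 in both lines. Slc16a1 (MCT1) held 171, 181 and 156 CPM untreated, 181, 212 and 229.7 CPM at day 2 and 36.2, 33.3 and 33.4 CPM at day 5 in the wild-type line. For Slc16a1 the P248L libraries held 241, 241 and 224 CPM untreated, 316, 373 and 408 CPM at day 2 and 33.9, 42.4 and 41.9 CPM at day 5. The highest of the 6 day 5 libraries stood at 42.4 CPM and the lowest earlier library at 156 CPM. It fell 4.94-fold and 5.98-fold (log2 -2.30 ± 0.13 SE, adjusted p = 3.2e-11, and log2 -2.58 ± 0.13 SE, adjusted p = 1.2e-11). Slc16a3 (MCT4), the carrier suited to lactate export, held 0.0995, 0.310 and 0.177 CPM untreated, 2.40, 2.35 and 2.51 CPM at day 2 and 13.5, 19.0 and 18.3 CPM at day 5 in the wild-type line. For Slc16a3 the P248L libraries held 0.901, 1.02 and 1.15 CPM untreated, 2.07, 2.83 and 1.47 CPM at day 2 and 84.3, 70.7 and 82.1 CPM at day 5. Each step in time lay above the one before in both lines with no overlap, and at day 5 the P248L libraries stood above the wild-type ones. The day 5 changes were log2 6.34 ± 0.29 SE, adjusted p = 1.3e-12, and log2 6.28 ± 0.24 SE, adjusted p = 2.4e-13, from an untreated level that was itself higher in the P248L line (log2 2.28 ± 0.35 SE, adjusted p = 0.00013), and the day 2 responses differed by log2 -2.46 ± 0.42 SE, adjusted p = 0.00088. With reads counted regardless of strand, the day 5 changes were 4.72 and 5.41.

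Of the 3 kinases that steer pyruvate and fructose phosphate, Pdk1 alone moved in opposite directions in the 2 lines at day 5. Pdk1, which switches off pyruvate dehydrogenase and so keeps pyruvate from the mitochondria, held 89.8, 92.3 and 99.8 CPM untreated, 37.9, 40.3 and 44.3 CPM at day 2 and 29.7, 41.5 and 63.4 CPM at day 5 in the wild-type line. For Pdk1 the P248L libraries held 65.7, 82.7 and 89.3 CPM untreated, 58.0, 61.9 and 83.6 CPM at day 2 and 148, 126 and 156 CPM at day 5. It was lower at both times in the wild-type line and higher at day 5 in the P248L line, with no overlap with the untreated libraries in these 3 comparisons. The day 5 changes were log2 -1.07 ± 0.21 SE, adjusted p = 0.00018, and log2 0.86 ± 0.21 SE, adjusted p = 0.0013, a difference of log2 1.92 ± 0.30 SE, adjusted p = 0.00011. The day 2 difference of log2 0.98 ± 0.29 SE, adjusted p = 0.044, was lost in 14 of the 18 fits with 1 library left out.

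Pfkfb3 and Pfkfb4 make and break the fructose bisphosphate that activates phosphofructokinase, and they moved in opposite directions. Pfkfb3 held 113, 99.3 and 107 CPM untreated, 115, 117 and 107 CPM at day 2 and 44.2, 46.3 and 40.003 CPM at day 5 in the wild-type line. For Pfkfb3 the P248L libraries held 78.7, 83.4 and 92.2 CPM untreated, 97.3, 102 and 105 CPM at day 2 and 54.0, 55.0 and 42.5 CPM at day 5. It fell at day 5 in both (log2 -1.29 ± 0.12 SE, adjusted p = 1.5e-08, and log2 -0.75 ± 0.11 SE, adjusted p = 1.5e-05). Pfkfb4 held 8.55, 10.1 and 10.8 CPM untreated, 25.4, 24.0 and 20.1 CPM at day 2 and 47.6, 57.8 and 57.6 CPM at day 5 in the wild-type line. For Pfkfb4 the P248L libraries held 4.62, 8.36 and 7.11 CPM untreated, 6.04, 6.71 and 3.24 CPM at day 2 and 53.3, 46.6 and 47.9 CPM at day 5. The wild-type line was higher at both times, the P248L line at day 5 alone, and the day 2 responses differed by log2 -1.55 ± 0.32 SE, adjusted p = 0.0039. By day 5 the 2 lines reached like levels, 54.3 ± 5.86 and 49.3 ± 3.57 CPM (SD, n = 3), with changes of log2 2.47 and log2 2.88.

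Hif1a, the regulated subunit of HIF-1, was higher at both times in both lines. Wild-type libraries held 167, 143 and 171 CPM untreated, 314, 347 and 325 CPM at day 2 and 256, 267 and 269.7 CPM at day 5. For Hif1a the P248L libraries held 109, 149 and 178 CPM untreated, 300.1, 401 and 529 CPM at day 2 and 431, 459.8 and 428 CPM at day 5. No library in IL-3 overlapped the untreated ones of its line. Its day 5 changes were log2 0.72 ± 0.18 SE, adjusted p = 0.0016, and log2 1.60 ± 0.18 SE, adjusted p = 4e-07, a difference of log2 0.88 ± 0.25 SE, adjusted p = 0.015. The wild-type call at day 5 was lost with no scaling beyond library size. The 2 prolyl hydroxylases, which need oxygen to mark HIF-1α, behaved differently from each other. Egln1 (PHD2) was lower at both times in the wild-type line (day 5: log2 -0.91 ± 0.16 SE, adjusted p = 4.8e-05) and lower at day 2 but not called at day 5 in the P248L line (log2 -0.02 ± 0.16 SE, adjusted p = 0.92), within a range of 69.8 to 187 CPM.

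Egln3 (PHD3), itself a strong target of HIF, showed the largest difference between the lines' responses at day 5 among the 35 tested members. The wild-type libraries held 124, 122 and 128 CPM untreated, 121, 143 and 131 CPM at day 2 and 16.0, 22.1 and 70.8 CPM at day 5. The P248L libraries held 121, 122 and 126 CPM untreated, 127, 146 and 139 CPM at day 2 and 693, 514 and 706 CPM at day 5. The 4 groups before day 5 lay together between 121 and 146 CPM, and at day 5 the lines parted, below that range in the wild-type line and above it in the P248L line. Egln3 fell 3.45-fold in the wild-type line (log2 -1.79 ± 0.35 SE, adjusted p = 0.00016) and rose 5.18-fold in the P248L line (log2 2.37 ± 0.35 SE, adjusted p = 8.9e-06). The difference was log2 4.16 ± 0.49 SE, adjusted p = 7.3e-06. Library 3 of the wild-type day 5 group was the highest of its 3, and without it the wild-type change was -2.71 and the difference 5.09.

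Vegfa, the endothelial growth factor, came next. Its wild-type libraries held 49.0, 48.7 and 64.1 CPM untreated, 30.7, 25.5 and 30.6 CPM at day 2 and 25.7, 31.0 and 46.6 CPM at day 5. Its P248L libraries held 34.4, 45.5 and 46.9 CPM untreated, 18.4, 21.2 and 23.7 CPM at day 2 and 498, 369.6 and 509 CPM at day 5. Day 2 lay below untreated in both lines, and at day 5 the lowest P248L library, at 369.6 CPM, stood far above the highest of all other groups, at 64.1 CPM. The P248L day 5 level was 10.9-fold that of untreated cells (log2 3.44 ± 0.21 SE, adjusted p = 1.5e-10) and 21.8-fold that of day 2. The wild-type level was lower than untreated (log2 -0.65 ± 0.20 SE, adjusted p = 0.0074, a call lost without library 1 of its day 5 group), and the responses differed by log2 4.09 ± 0.29 SE, adjusted p = 2e-08.

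Ndrg1, a stress-responsive protein long used as a hypoxia marker, followed a similar course. Wild-type libraries held 72.4, 90.4 and 77.8 CPM untreated, 43.8, 51.1 and 41.3 CPM at day 2 and 133, 146 and 201 CPM at day 5. For Ndrg1 the P248L libraries held 38.4, 38.7 and 38.0 CPM untreated, 12.8, 14.6 and 16.7 CPM at day 2 and 579.7, 361 and 583 CPM at day 5. Both lines dipped at day 2 and passed the untreated level at day 5, with no overlap at either step. The P248L line began lower (log2 -1.06 ± 0.18 SE, adjusted p = 0.00038) and ended higher (log2 1.67 ± 0.18 SE, adjusted p = 8.6e-07), and the day 5 responses of log2 1.0 and log2 3.73 differed by log2 2.73 ± 0.26 SE, adjusted p = 6.1e-07. Ankrd37, a small ankyrin-repeat protein, held 2.04, 2.75 and 2.66 CPM untreated, 1.13, 2.30 and 2.72 CPM at day 2 and 1.46, 2.79 and 8.98 CPM at day 5 in the wild-type line. For Ankrd37 the P248L libraries held 2.74, 3.87 and 2.50 CPM untreated, 1.53, 2.40 and 3.24 CPM at day 2 and 26.7, 23.3 and 34.0 CPM at day 5. Its P248L day 5 libraries stood above all others, while the wild-type day 5 libraries spanned the untreated range. It rose 9.09-fold in the P248L line (log2 3.19 ± 0.45 SE, adjusted p = 5.6e-06), and the difference between responses was log2 2.38 ± 0.64 SE, adjusted p = 0.01, or 3.41 without library 3 of the wild-type day 5 group. With reads counted regardless of strand its P248L rise was 2.53.

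Bnip3 and Bnip3l are receptors on the mitochondrial surface that call in autophagy. Bnip3 held 17.7, 23.3 and 21.2 CPM untreated, 23.7, 33.2 and 26.9 CPM at day 2 and 29.9, 39.1 and 69.1 CPM at day 5 in the wild-type line. For Bnip3 the P248L libraries held 31.4, 29.1 and 29.9 CPM untreated, 33.6, 38.9 and 44.7 CPM at day 2 and 213, 155 and 228 CPM at day 5. It was higher at day 5 in both (log2 1.15 ± 0.24 SE, adjusted p = 0.00031, and log2 2.72 ± 0.25 SE, adjusted p = 2.2e-08), and more so in the P248L line by log2 1.57 ± 0.33 SE, adjusted p = 0.0018. Its counts are uncertain, with 59.1% of words shared with other genes. Bnip3l, in contrast, moved alike, with 103, 115 and 104 CPM untreated, 69.8, 79.0 and 72.2 CPM at day 2 and 289, 306 and 353 CPM at day 5 in the wild-type line. For Bnip3l the P248L libraries held 125, 113 and 122 CPM untreated, 71.6, 82.4 and 98.2 CPM at day 2 and 309, 304 and 322 CPM at day 5. Both lines were lower at day 2 and higher at day 5, and the day 5 changes of log2 1.56 and log2 1.38 were not shown to differ (log2 -0.18 ± 0.17 SE, adjusted p = 0.46). Of its words 24.4% are shared.

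Mxi1, an antagonist of MYC, held 52.3, 55.3 and 53.1 CPM untreated, 83.8, 76.6 and 80.9 CPM at day 2 and 118, 131 and 149 CPM at day 5 in the wild-type line. For Mxi1 the P248L libraries held 38.7, 38.3 and 37.5 CPM untreated, 36.5, 39.8 and 36.2 CPM at day 2 and 212, 161 and 195 CPM at day 5. The P248L line was not called at day 2 and was highest at day 5, and the response difference was log2 -0.61 ± 0.16 SE, adjusted p = 0.022, at day 2 and log2 1.01 ± 0.16 SE, adjusted p = 0.00015, at day 5. The day 2 call was lost with no scaling beyond library size and in 4 of the 18 fits with 1 library left out. Ddit4, an inhibitor of mTORC1, held 9.15, 9.60 and 8.38 CPM untreated, 15.5, 20.9 and 18.6 CPM at day 2 and 30.2, 18.2 and 22.0 CPM at day 5 in the wild-type line. For Ddit4 the P248L libraries held 12.4, 10.8 and 12.2 CPM untreated, 8.02, 7.20 and 5.51 CPM at day 2 and 27.6, 26.9 and 23.8 CPM at day 5. At day 2 it was higher than untreated in every wild-type library and lower in every P248L library, a difference of log2 -1.77 ± 0.26 SE, adjusted p = 2e-04, and at day 5 both lines were higher (log2 1.37 and log2 1.15).

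P4ha1, a subunit of collagen prolyl hydroxylase, held 66.5, 74.6 and 76.2 CPM untreated, 95.3, 96.7 and 94.5 CPM at day 2 and 193, 193 and 254 CPM at day 5 in the wild-type line. For P4ha1 the P248L libraries held 69.1, 74.6 and 72.0 CPM untreated, 92.8, 96.1 and 113 CPM at day 2 and 187, 137 and 196 CPM at day 5. It was higher at both times in both lines, by log2 1.56 ± 0.14 SE, adjusted p = 2e-08, and log2 1.27 ± 0.14 SE, adjusted p = 3.3e-07, at day 5. Its wild-type day 2 call was lost with upper-quartile and no scaling and in 4 of the 18 fits with 1 library left out. The P248L day 2 call was lost with only the libraries compared and without the 2 P248L libraries that stood apart. The histone demethylase gene Kdm3a, between 41.4 and 112 CPM, was lower at day 2 in both lines and was called at day 5 in neither. Its P248L call was lost with DESeq2, with limma-voom and in 8 of the 18 fits with 1 library left out. P4ha2 had 8 reads in all libraries together, and Adm, encoding adrenomedullin, had 0 (a count of 0 allows up to 3).

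Both glycogen genes parted the lines. Gys1, the glycogen synthase of non-hepatic tissues, held 35.7, 33.9 and 43.8 CPM untreated, 86.9, 72.3 and 67.4 CPM at day 2 and 33.8, 37.6 and 56.0 CPM at day 5 in the wild-type line. For Gys1 the P248L libraries held 28.0, 29.6 and 28.8 CPM untreated, 61.7, 51.0 and 38.3 CPM at day 2 and 193, 130.0 and 156 CPM at day 5. Both lines were higher at day 2, and at day 5 the wild-type libraries overlapped the untreated ones again while the P248L libraries stood above all others. The day 5 change was log2 0.17 ± 0.20 SE, adjusted p = 0.46, in the wild-type line and log2 2.47 ± 0.21 SE, adjusted p = 8.8e-09, in the P248L line, a difference of log2 2.30 ± 0.29 SE, adjusted p = 1.2e-05. Gbe1, the branching enzyme, held 21.6, 19.5 and 23.6 CPM untreated, 43.6, 39.8 and 37.1 CPM at day 2 and 10.9, 12.7 and 15.8 CPM at day 5 in the wild-type line. For Gbe1 the P248L libraries held 18.6, 19.8 and 20.6 CPM untreated, 28.2, 28.6 and 36.6 CPM at day 2 and 48.3, 49.4 and 50.3 CPM at day 5. Its wild-type day 5 libraries lay below, and its P248L day 5 libraries above, every untreated library (log2 -0.72 ± 0.15 SE, adjusted p = 0.00026, and log2 1.33 ± 0.14 SE, adjusted p = 2.2e-07), with a difference of log2 2.04 ± 0.20 SE, adjusted p = 1.2e-06.

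**Figure D2:**
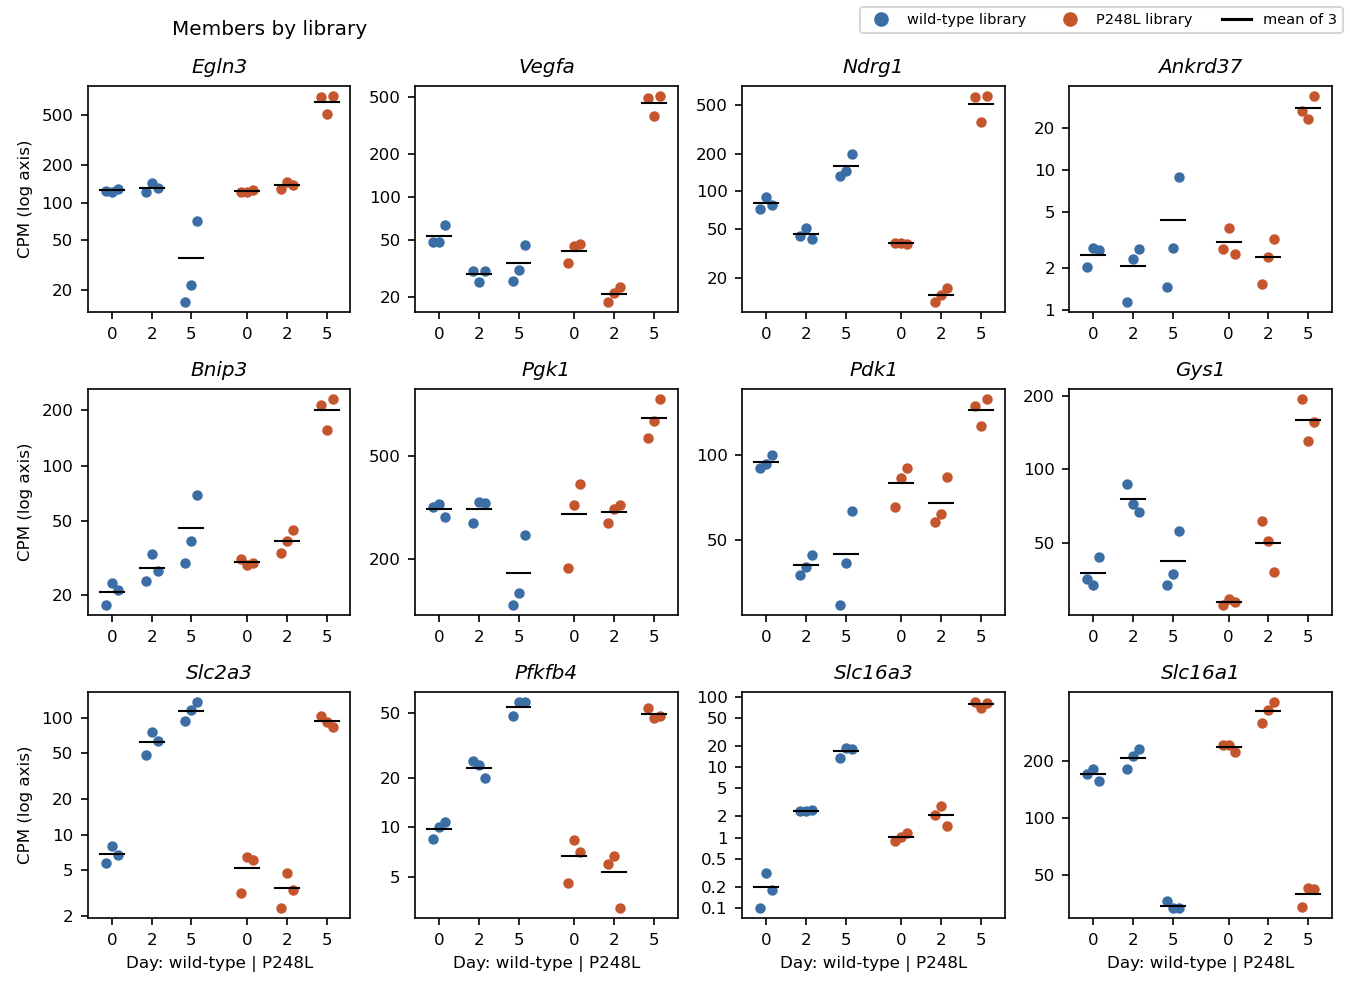
CPM of 12 members in each of the 18 libraries (points; log axis), by line and day, with a black line at the mean of 3. The P248L day 5 libraries of Egln3, Vegfa, Ndrg1, Ankrd37, Bnip3, Pgk1, Pdk1 and Gys1 stand above all other libraries, while Slc2a3 and Pfkfb4 reach like day 5 levels in both lines and Slc16a1 falls as Slc16a3 rises.

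Within a gene family the members' share of reads per kilobase of transcript shows which form made up the family's RNA. Of the 2 lactate carriers, Slc16a3 made up 0.113 ± 0.056% (SD, n = 3) in untreated wild-type cells and 32.9 ± 5.0% at day 5, and 0.432 ± 0.071% and 66.6 ± 4.4% in the P248L line. The day 5 libraries did not overlap between lines, 27.1 to 36.2% against 62.4 to 71.2%. Of the 2 glucose transporters Slc2a3 went from 13 ± 0.88% to 55.0 ± 4.1% in the wild-type line and from 8.88 ± 4.2% to 31.2 ± 5.7% in the P248L line. At day 2 the lines pointed apart, with 32.3 ± 4.0% and 3.54 ± 1.2%. Hk3 made up most hexokinase RNA untreated, 65.2 ± 1.2% and 67.0 ± 4.7%, and 46.1 ± 1.0% and 35.2 ± 4.1% at day 5, when Hk1 reached 36.5 ± 1.8% in the P248L line and 25.2 ± 0.85% in the wild-type line. Pfkm went from 23.1 ± 0.47% to 8.75 ± 1.0% of phosphofructokinase RNA in the wild-type line and from 22.4 ± 0.77% to 7.18 ± 0.86% in the P248L line. Of the 60 group means of shares in these families, 35 moved by at least 1 SD without the correction for length. With reads counted regardless of strand 6 moved, and with 1 library of the group left out 0 did. No test was made of these shares.

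**Figure D3:**
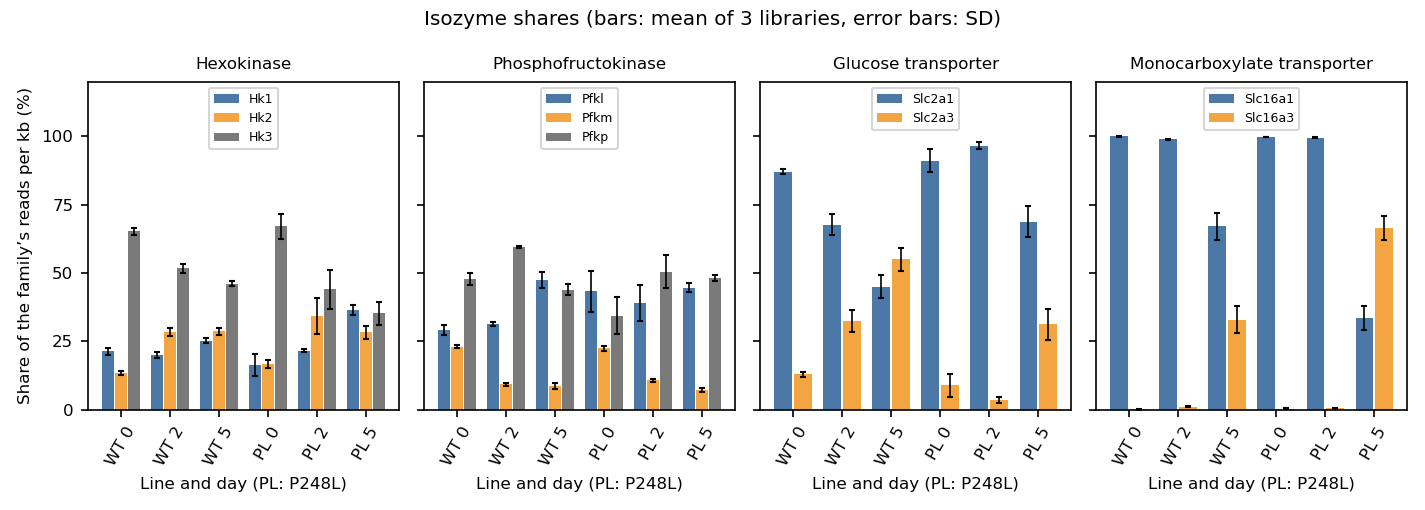
Share of a family's reads per kilobase (%) taken by each member, for hexokinases, phosphofructokinase subunits, glucose transporters and monocarboxylate transporters, in the wild-type (WT) and P248L (PL) line at day 0, 2 and 5; bars are means of 3 libraries and error bars 1 SD. Slc16a3 goes from under 1% to 32.9% and 66.6%, and Pfkm shrinks in both lines.

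Set side by side at the same time, the fewest members differed between the lines before IL-3 and the most at day 5, as was the case for all genes. In either direction 25.7% of members were called untreated and 37.1% at day 2, close to the 21.7% and 35.8% of all genes. Untreated, 4 members were higher and 5 lower in the P248L line, against 10.3% and 11.3% of all genes (21.7% in all); the higher ones were Pfkl, Ldha, Slc16a1 and Slc16a3 and the lower ones Hk1, Pfkp, Pfkfb3, Ndrg1 and Mxi1. Of these calls that of Pfkfb3 was lost in 14, that of Pfkl in 9 and that of Pfkp in 6 of the 18 fits with 1 library left out, and Pfkp and Pfkfb3 were lost without the 2 P248L libraries that stood apart. At day 2, 2 were higher (Slc16a1 and Pdk1) and 11 lower, against 15.5% and 20.3% (35.8% in all). Besides Eno2, with its few reads, the largest gaps then were in Slc2a3 (log2 -4.18 ± 0.29 SE, adjusted p = 2.4e-09) and Pfkfb4 (log2 -2.10 ± 0.23 SE, adjusted p = 1.2e-06). At day 5, 23 were higher in the P248L line and 0 lower (1 lower with the size factors of DESeq2, and 24 higher and 2 lower without the 2 P248L libraries that stood apart), against 22.8% and 22.7% of all genes (45.5% in all), with a median of 0.85 for the members and 0.02 for all genes. That higher group spans each of the 9 roles, from Slc16a3 (log2 2.22 ± 0.19 SE, adjusted p = 3.5e-08) and Slc2a1 among the transporters to Vegfa (log2 3.74 ± 0.22 SE, adjusted p = 2.5e-10) and Egln3 (log2 4.14 ± 0.38 SE, adjusted p = 8.7e-08).

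The members also varied together among the libraries of 1 group. In the wild-type day 5 group library 3 was the highest of the 3 in 28 of the 35 members and library 1 the lowest in 31, where over all tested genes library 3 was highest in 36.8% and library 1 lowest in 32.9%. Egln3, at 16.0, 22.1 and 70.8 CPM, and Ankrd37, at 1.46, 2.79 and 8.98 CPM, followed this order. The summed neutrophil markers, mostly S100a8 and S100a9, had the same order in these libraries, 9256, 11557 and 14882 CPM. So had the summed progenitor markers, at 1543.6, 1619.5 and 1619.8 CPM. The sums of macrophage (2780.3, 2767 and 2491 CPM), mast cell (3069.5, 2711 and 2082 CPM), red cell (28.3, 10.3 and 7.14 CPM) and megakaryocyte markers (34.1, 28.7 and 27.9 CPM) ran in the opposite order. Those of hepatocyte markers and of endothelial and stromal markers followed neither order. In the P248L day 5 group library 2 was the lowest in 24 members, against 35.1% of all genes, while its neutrophil sum was the highest of the 3, at 40533 CPM against 28309 and 37142. What set these libraries apart was not tested. With library 3 of the wild-type day 5 group left out, the day 5 difference between responses lost the call of Pfkfb3 and the members' median difference was 0.96.

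Genes of neighbouring pathways were counted from lists drawn up with results of these data known. The shares of all genes to read them against are 35.7% higher and 37.4% lower at day 5 in the wild-type line, 34.8% and 36.2% in the P248L line, and 14.7% and 12.2% for the response difference. Of 40 tested other hypoxia-inducible genes, 20 were higher and 11 lower at day 5 in the wild-type line, and 24 and 7 in the P248L line. Their day 5 responses differed in both directions, with 11 larger and 6 smaller in the P248L line and a median of 0.36, which is 27.5% and 15% of the list. Stc2, encoding stanniocalcin, had the largest called difference among genes of at least 10 CPM (2.62 ± 0.32 SE, adjusted p = 1.1e-05), and Hilpda, a lipid droplet protein, the lowest (-1.55 ± 0.38 SE, adjusted p = 0.0054). Stc2 fell less in the P248L line, from 16.4 ± 4.61 to 8.12 ± 1.17 CPM, than in the wild-type line, from 20.1 ± 1.57 to 1.60 ± 0.498 CPM. Hilpda rose in both lines. Of 13 tested other glycolysis genes, 7 were higher and 3 lower at day 5 in each line (53.8% and 23.1%), and 2 responses (15.4%) were larger in the P248L line, Pkm2 and Pfkfb1. The pyruvate kinase Pkm2, the last step of glycolysis, was at 942 ± 47.6 and 796 ± 83.3 CPM untreated and at day 5 in the wild-type line and at 1053 ± 166 and 1647 ± 118 CPM in the P248L line, a difference of 0.89 ± 0.23 SE (adjusted p = 0.0082).

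**Figure D4:**
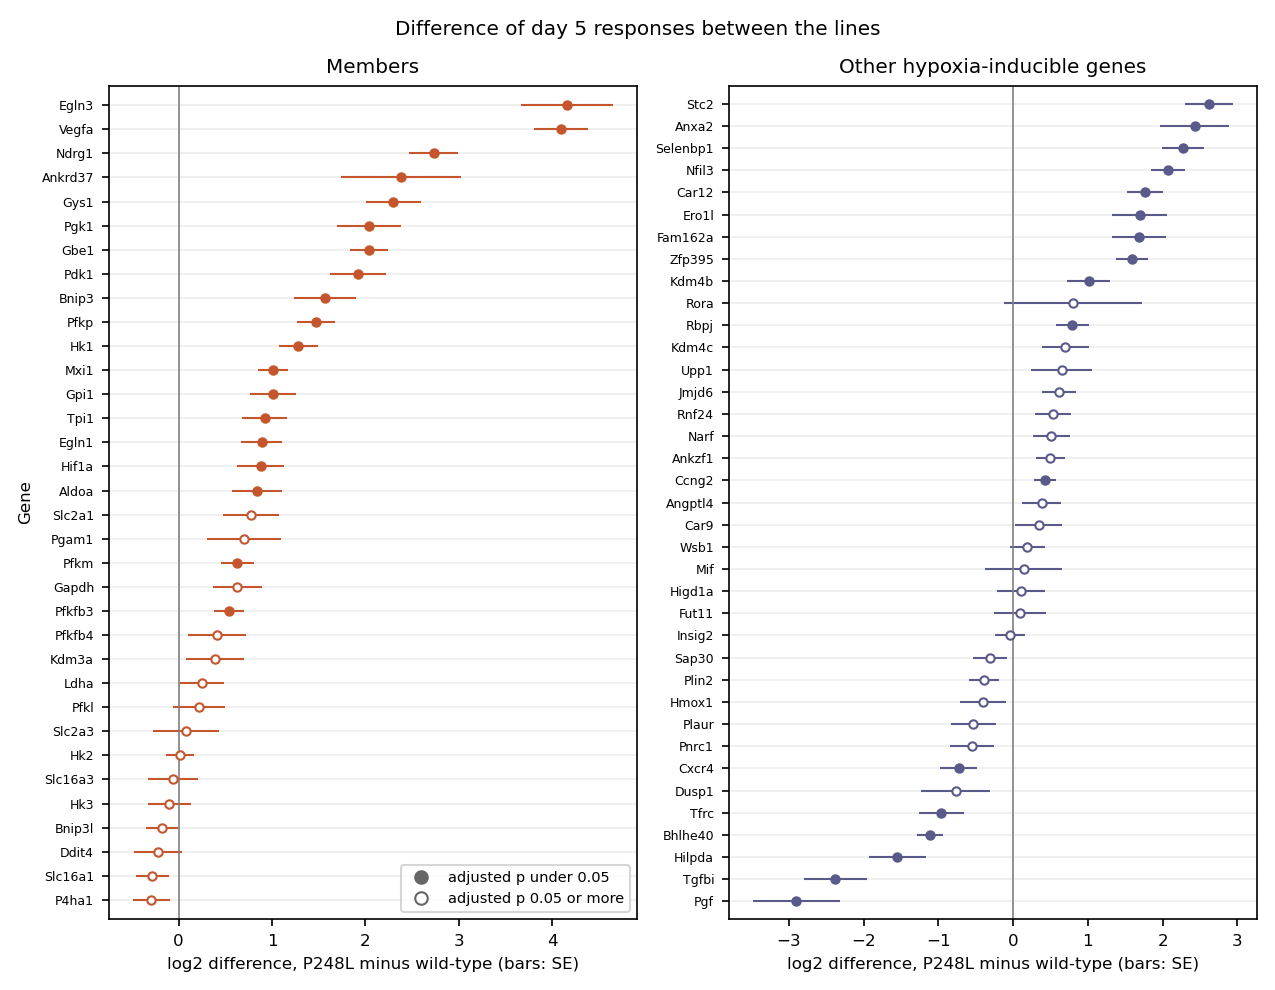
Difference of the day 5 responses, P248L minus wild-type (log2; bars 1 SE; filled where called), for 34 members (left) and 37 other hypoxia-inducible genes (right), leaving out genes with an SE over 1. Called members lie to the right of 0 in each case, from 0.54 (Pfkfb3) to 4.16 (Egln3), while the other hypoxia-inducible genes are called on both sides.

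Among 19 regulators of HIF, 7 were higher and 4 lower at day 5 in the wild-type line (36.8% and 21.1%) and 6 and 8 in the P248L line (31.6% and 42.1%). Of their responses 2 were larger and 1 smaller in the P248L line (10.5% and 5.26%). Hif3a, a HIF subunit that can restrain the others, fell in both lines, from 41.8 ± 8.66 to 0.241 ± 0.18 CPM and from 28.6 ± 9.30 to 2.10 ± 0.571 CPM. Its fall was smaller in the P248L line, with a response difference of 3.62 ± 0.52 SE, adjusted p = 6e-05. Cited2, which competes with HIF-1α for its co-activator, rose in both, from 68.2 ± 4.87 to 253 ± 15.2 CPM and from 68.7 ± 8.38 to 279 ± 15.2 CPM. Of 14 tested genes of pyruvate dehydrogenase and gluconeogenesis, 3 responses were larger and 2 smaller in the P248L line (21.4% and 14.3%); the largest at 10 CPM or more was in Pck2, the mitochondrial carboxykinase (2.18 ± 0.25 SE, adjusted p = 5.7e-06). The pentose phosphate list had 4 larger and 0 smaller among 12 (33.3% and 0%). The glycogen list had 3 larger and 1 smaller among 19 (15.8% and 5.26%). The largest upward difference at 10 CPM or more was in Phka2, a subunit of phosphorylase kinase (1.30 ± 0.26 SE, adjusted p = 0.0013). Phka2 fell from 128 ± 7.69 to 52.1 ± 11.5 CPM in the wild-type line and stood at 78.9 ± 24.1 and 78.8 ± 2.33 CPM in the P248L line. The smaller response was that of Gaa (-1.74 ± 0.34 SE, adjusted p = 0.00099). Of 15 other glucose and monocarboxylate transport genes, 12 were higher and 2 lower at day 5 in the wild-type line (80% and 13.3%) and 10 and 1 in the P248L line (66.7% and 6.67%), led by Slc37a2, a sugar phosphate exchanger (5.46 ± 0.20 SE and 5.36 ± 0.20 SE, adjusted p = 6.8e-14 and 1.5e-13).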

How the data were processed

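RNA was isolated from 1000000 cells per condition with the mirVana kit, per the labels' protocols. The authors deposited 1 table per library of raw read counts per gene for each strand setting; reads were aligned with STAR to mm10, per the submitters' processing notes. Neither STAR's version nor the annotation used for counting is stated in the sources used here. The stranded column with nearly all reads was used; 27.9 to 38.1% of reads fell in no single gene and stayed out of library sizes. Genes were kept by edgeR's filterByExpr with a minimum count of 10, scaled by TMM and fitted with the quasi-likelihood model, 1 mean per group over all 18 libraries (R 4.3.3, edgeR 4.0.16). P-values were adjusted over all tested genes by Benjamini-Hochberg with a threshold of 0.05. Each SE was derived from the fold change and its F statistic (the change divided by the root of F). Isozyme shares use counts per kilobase of exons.

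The members and lists were chosen with earlier results of these data known. Values of every library are given for members called in any comparison with an absolute log2 fold change of at least 1 and at least 10 CPM in the higher group, and other members by ranges. Of each other list, the largest called rise and fall at 10 CPM or more may be named; Pfkfb1 and Gm5506 were named after their values were seen. A gene was called uncertain where at least 20% of its transcript words of 50 bases occur in other genes.

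Same-numbered libraries deviated together in the P248L untreated and day 2 groups alone (correlations 0.46, 0.175 and 0.348), so a fit with the replicate number as a block in these groups was added after seeing the data. No 2 libraries agreed within counting noise. Alternatives were DESeq2 1.42.0, limma-voom (limma 3.58.1), other scalings, filters and thresholds, reads counted regardless of strand, a replicate block and leaving out libraries. The fit was tested on simulated data: 2-fold changes were recovered in 88 to 94% of cases between 2 groups and in 51 and 50% for the day 2 and day 5 response differences. Changes were planted in well-read genes alone, with noise drawn from the fitted trend. Genes of few reads and the P248L libraries that stood apart are therefore not covered. Figures were drawn with matplotlib 3.10.9.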

Additional observations from a re-analysis of the deposited data

Results flagged for a closer look

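The responses of the 2 lines to the change of medium differed in 26 tests of single members by edgeR's interaction contrast, 7 at day 2 and 19 at day 5. Values are the P248L log2 response minus the wild-type one. At day 2 the P248L response was smaller or opposite for Eno2 (-6.46 ± 1.78 SE, adjusted p = 0.031), Slc2a3 (-3.79 ± 0.38 SE, adjusted p = 4.3e-06) and Slc16a3 (-2.46 ± 0.42 SE, adjusted p = 0.00088). The same held for Pfkfb4 (-1.55 ± 0.32 SE, adjusted p = 0.0039), Ddit4 (-1.77 ± 0.26 SE, adjusted p = 0.0002) and Mxi1 (-0.61 ± 0.16 SE, adjusted p = 0.022), while Pdk1 went the other way (0.98 ± 0.29 SE, adjusted p = 0.044). The Eno2 value rests on 24 reads against 0 at day 2 and was -4.59 with limma-voom and -5.83 without wild-type untreated library 2. Its call was lost in 7 of the 18 fits with 1 library left out and without untreated P248L library 1 and P248L day 2 library 3 together (-6.53, adjusted p = 0.12). The call of Pdk1 was lost in 14 and that of Mxi1 in 4 of the 18. With reads counted regardless of strand the Slc16a3 value was -1.55.

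At day 5 the difference favoured the P248L line in each of the 19. Among the enzymes of glycolysis these were Hk1 (1.28 ± 0.21 SE, adjusted p = 0.00022), Gpi1 (1.01 ± 0.25 SE, adjusted p = 0.0058), Pfkm (0.63 ± 0.18 SE, adjusted p = 0.014) and Pfkp (1.47 ± 0.20 SE, adjusted p = 3e-05). Further enzymes were Aldoa (0.84 ± 0.27 SE, adjusted p = 0.027), Tpi1 (0.92 ± 0.24 SE, adjusted p = 0.0089) and Pgk1 (2.04 ± 0.34 SE, adjusted p = 0.00022). The switch kinases were Pdk1 (1.92 ± 0.30 SE, adjusted p = 0.00011) and Pfkfb3 (0.54 ± 0.16 SE, adjusted p = 0.019), which fell in both lines. The call of Aldoa was lost in 7 and that of Pfkfb3 in 6 of the 18 fits with 1 library left out. The factor and its hydroxylases were Hif1a (0.88 ± 0.25 SE, adjusted p = 0.015), Egln1 (0.89 ± 0.22 SE, adjusted p = 0.006) and Egln3 (4.16 ± 0.49 SE, adjusted p = 7.3e-06). The hypoxia-inducible targets were Bnip3 (1.57 ± 0.33 SE, adjusted p = 0.0018), Ankrd37 (2.38 ± 0.64 SE, adjusted p = 0.01), Vegfa (4.09 ± 0.29 SE, adjusted p = 2e-08), Ndrg1 (2.73 ± 0.26 SE, adjusted p = 6.1e-07) and Mxi1 (1.01 ± 0.16 SE, adjusted p = 0.00015). The glycogen genes were Gys1 (2.30 ± 0.29 SE, adjusted p = 1.2e-05) and Gbe1 (2.04 ± 0.20 SE, adjusted p = 1.2e-06).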

How the results depend on the processing

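Counts of called members are given here where another setting moved them by over 1.5 times, and medians where it moved them by more than the spread between libraries. With an absolute log2 fold change of at least 1 asked for as well, the count was 10 and 16 in the wild-type line at day 2 and day 5 against untreated, 11 for its day 5 against day 2, 4 in the P248L line at day 2, and 2, 6 and 14 between the lines untreated, at day 2 and at day 5. At an adjusted p under 0.01 it was 4 between the untreated lines and 4 for the day 2 response difference. With only the libraries compared, P248L day 2 had 9 calls and wild-type day 2 a median of 0.45. With no scaling beyond library size the medians against untreated were 0.32 and -0.10 in the wild-type line and 0.07 and 1.10 in the P248L line, and for day 5 against day 2 -0.24 and 0.98. They were -0.11 and -0.20 between the lines untreated and at day 2, and -0.12 and 1.01 for the response differences. Upper-quartile scaling gave 0.40 and 0.08 at day 2. DESeq2 and its size factors in edgeR each gave 0.24 for P248L day 2, -0.12 between the lines at day 2 and -0.15 for the day 2 difference. That comparison of lines at day 2 had -0.21 with limma-voom, -0.15 with a minimum count of 50 and -0.15 with reads counted regardless of strand. Without untreated P248L library 1 and P248L day 2 library 3 it had -0.09, and the day 2 difference -0.13; the counts were then 22 for P248L day 2 (17 with all libraries), 27 for wild-type day 5 against day 2 (23) and 16 between the lines at day 2 (13).

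Leaving out 1 library at a time gave 22 to 27 calls (medians 0.44 to 0.53) for wild-type day 2, 23 to 26 (0.05 to 0.36) for wild-type day 5 and 20 to 25 (-0.09 to 0.05) for its day 5 against day 2. The P248L line gave 16 to 18 (0.02 to 0.27), 32 to 33 (1.28 to 1.40) and 29 to 31 (0.96 to 1.17). Between the lines it gave 5 to 10 (-0.04 to 0.02) untreated, 10 to 16 (-0.18 to -0.09) at day 2 and 23 to 24 (0.77 to 0.96) at day 5. The response differences gave 4 to 8 (-0.23 to -0.13) and 17 to 20 (0.66 to 0.96). Over 29 refits of 225 member calls a call was lost 211 times, and 1 reversed, that of Hk1 in wild-type day 5 against untreated with no scaling beyond library size. Among 127 of these calls, those with an absolute log2 fold change of at least 1 in members given library by library, a call was lost 29 times, in Ankrd37, Slc16a3 and Eno2, and 0 reversed.

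With the replicate block over all groups the counts were 26, 25 and 23 in the wild-type line, 18, 32 and 30 in the P248L line, 7, 15 and 24 between the lines and 7 and 19 for the differences. In the P248L untreated and day 2 libraries alone, where the numbers pair, the block gave 15 calls and a median of 0.16.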
